A study of Mus musculus with 163 samples.

Results

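The genes described are 10 enzymes of glycolysis and lactate metabolism: Hk1, Gpi1, Pfkl, Pfkp, Aldoa, Pgk1, Eno1, Pkm, Ldha and Ldhb. They were matched by Entrez identifier to the 21950 genes of a table of read counts per gene. The match found 9 of the 10, and Hk1 is not analysed here. Their transcripts were measured by Smart-seq2, which reads polyadenylated RNA of full length from a single cell, in 163 mouse oocytes of 7 groups.

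Growing oocytes (GROs) comprised 23 derived from the BVSC-iPSC line, 24 derived from E12.5 embryonic gonads and 24 in vivo oocytes. Fully grown oocytes (FGOs) comprised 24 iPSC-derived, 24 gonad-derived, 24 from follicles of mice at 6 dpp (days post partum) and 20 in vivo oocytes. BVSC-iPSC is a single female line of induced pluripotent stem cells, made from tail-tip fibroblasts, that carries the reporters Blimp1-Venus and Stella-ECFP. Its primordial germ cell-like cells were joined with somatic cells of E12.5 gonads of outbred Swiss Webster embryos. Some germ cells of those gonads may have remained, so an iPSC-derived oocyte could stem from the host gonad. Gonad-derived oocytes came from whole E12.5 gonads that were dissociated and joined again, and 6 dpp oocytes entered culture inside their follicles. The FGOs of all 3 culture groups passed through growth culture in a medium that contained pyruvate. That culture was shorter for the gonad-derived and 6 dpp follicles than for the iPSC-derived ones. Before lysis the oocytes were freed of somatic cells and of the zona pellucida. Neither the age nor the strain of the mice behind the in vivo oocytes is given in the sources used here.

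Glycolysis splits glucose into pyruvate in the cytosol, and lactate dehydrogenase interconverts pyruvate and lactate. The 2 main subunits of that enzyme, encoded by Ldha and Ldhb, assemble into tetramers. Those rich in the Ldha subunit are typical of tissues that release lactate, and those rich in the Ldhb subunit of tissues that take it up. Mouse oocytes use glucose poorly and live on pyruvate supplied by the cumulus cells around them, whose own glycolysis is active.

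The labels name no animal, embryo or culture behind an oocyte. Oocytes of a group were therefore not treated as replicates of a condition, each group counted as 1 sample, and no comparison carries a test or a replicate check. Levels are counts per 1000000 reads (CPM) of the oocytes of a group summed, with the exact Poisson 95% interval in brackets where it is printed. These intervals cover counting error only, because amplified reads are not independent molecules. CPM is a share of a library. A higher or lower value at the later stage does not give the change in transcripts per oocyte, which was not estimated. A difference is the log2 ratio of pooled CPM + 0.5 of 2 groups, which makes changes of weakly expressed genes look smaller. A gene was called past 2-fold where that ratio was at least 1 or at most -1, among genes above 1 CPM in at least 3 oocytes of the groups compared. Values of several groups in a row keep the order iPSC-derived, then gonad-derived, then 6 dpp (FGOs only), then in vivo. Levels of different genes are compared only as reads per kilobase and 1000000 reads (RPKM), over the exonic length deposited with the table. Where oocytes of 2 groups are said not to overlap, the share of all genes without overlap is not given.

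Each oocyte had between 2.17 and 13.7 M counted reads (M, 1000000 reads; median 6.93 M), and 3 reads in a group corresponded to at most 0.0207 CPM. All 12 markers of oocytes had reads in every group, with 1 of them below 1 CPM in each group of FGOs. Summed markers of granulosa cells, the somatic cells of the follicle, had group medians between 53.8 and 60.2 CPM in GROs and between 108 and 153 CPM in FGOs. Of these markers 12 of 14 were in the table and none was at 0 reads in any group. Single oocytes stood apart for this sum, 6 dpp FGO 12 at 1667 CPM, in vivo FGO 19 at 429 CPM, 6 dpp FGO 10 at 394 CPM and in vivo FGO 16 at 360 CPM. The 3 blood markers in the table were below 1 CPM in all groups. Of 3 cumulus markers in the table, at most 1 reached 1 CPM in any group. Of the 10 markers of theca and stroma, between 4 and 8 were below 1 CPM. Their summed level had group medians between 3.39 and 14.5 CPM, with single oocytes up to 816 CPM in 6 dpp FGOs, 68.9 CPM in gonad-derived FGOs and 41.4 CPM in in vivo FGOs.

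By RefSeq (GRCm38.p6) Ldha is at chr7:46842274-46855627, Ldhb at chr6:142490249-142507957, Pfkl at chr10:77986947-78009807, Pfkp at chr13:6579874-6649060 and Pkm at chr9:59656576-59679372. Gpi1 is at chr7:34201327-34230336, Aldoa at chr7:126795234-126800994, Pgk1 at chrX:106187100-106203699 and Eno1 at chr4:150236708-150248879. Counting was over exons. Promoter windows of RefSeq, from 250 bases before to 50 bases after an annotated start, were found for all 10 genes. Those of the 3 members that passed 2-fold in at least 1 comparison (Ldha, Pfkl and Pgk1) are shown with that of Ldhb, the partner subunit, which passed 2-fold in no comparison. Capitals mark the letters ACGTG on either strand, one of the forms, with GCGTG, of the core of the element through which hypoxia-inducible factors act. Runs of 6 capitals are the palindrome CACGTG, which holds the letters on both strands.
Ldha promoter, chr7:46845554-46845853, plus strand: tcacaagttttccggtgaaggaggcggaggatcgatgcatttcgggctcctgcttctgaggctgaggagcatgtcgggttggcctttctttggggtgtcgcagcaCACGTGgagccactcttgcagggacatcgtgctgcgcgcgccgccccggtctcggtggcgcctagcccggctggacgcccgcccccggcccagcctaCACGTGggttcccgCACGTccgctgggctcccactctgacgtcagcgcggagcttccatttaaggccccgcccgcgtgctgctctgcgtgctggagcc
Ldhb promoter, chr6:142507908-142508207, minus strand: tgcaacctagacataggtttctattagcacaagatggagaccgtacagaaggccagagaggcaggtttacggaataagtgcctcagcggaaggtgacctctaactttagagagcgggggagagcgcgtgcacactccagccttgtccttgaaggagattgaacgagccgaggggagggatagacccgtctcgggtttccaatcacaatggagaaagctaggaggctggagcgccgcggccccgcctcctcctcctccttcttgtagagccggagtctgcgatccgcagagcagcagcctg
Pfkl promoter, chr10:78009758-78010057, minus strand: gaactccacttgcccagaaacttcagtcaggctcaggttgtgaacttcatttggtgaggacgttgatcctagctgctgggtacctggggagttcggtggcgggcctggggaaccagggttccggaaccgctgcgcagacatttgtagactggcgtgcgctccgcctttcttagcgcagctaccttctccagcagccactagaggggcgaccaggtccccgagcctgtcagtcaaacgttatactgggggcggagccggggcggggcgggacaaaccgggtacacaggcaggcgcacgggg
Pgk1 promoter, chrX:106186850-106187149, plus strand: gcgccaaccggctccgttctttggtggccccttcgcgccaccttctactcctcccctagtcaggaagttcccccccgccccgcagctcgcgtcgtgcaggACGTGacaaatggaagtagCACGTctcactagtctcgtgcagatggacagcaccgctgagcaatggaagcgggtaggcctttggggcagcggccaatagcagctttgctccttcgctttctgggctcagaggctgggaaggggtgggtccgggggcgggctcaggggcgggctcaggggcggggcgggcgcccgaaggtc

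The Ldha window held 3 such runs, which began 145, 48 and 34 bases upstream of the start. The Pgk1 window held 2, at 150 and 131 bases upstream. The windows of Ldhb and Pfkl held 0, as did that of a second annotated start of Ldha. Over all annotated starts, 6 of the 17 windows of the 10 genes held these letters, with others in Aldoa (2 windows that overlap), Pkm and Hk1. Of all 32851 promoter windows of the same length, 19.6% held them at least once. The form GCGTG, left in lower case, stood on either strand 2 times in the Ldha window, once in those of Ldhb and Pfkl and 0 times in that of Pgk1, and 32.4% of all windows held it. A match is a description of the letters only, and windows without one may still bind such factors.

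Copies elsewhere in the genome limit some of the counts, because reads that fit several places were not counted. Of the 75-base words of a Pgk1 transcript, 67.5% were also in transcripts of genes elsewhere, 4 pseudogenes. For Eno1 the share was 65.4%, over 6 other genes of which 5 were pseudogenes. It was 16.7% for Ldhb, 15.6% for Pkm, 5.23% for Ldha, 4.90% for Gpi1, 1.49% for Aldoa and 0 for Pfkl and Pfkp. The levels of Pgk1 and Eno1 are therefore uncertain, and their ratios rest on the remaining part of the transcript. Use of strand in the counting was not stated, and the spans of Gpi1, Pfkp and Aldoa overlap a gene on the other strand.

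Per length, Ldhb was the highest member in every group, between 1697 and 3668 RPKM. Aldoa (56.5 to 187 RPKM), which splits fructose 1,6-bisphosphate, and Pkm (60.6 to 144 RPKM), which makes pyruvate, came next in every group. Gpi1, the isomerase of glucose 6-phosphate, had 23.4 to 41.1 RPKM. The phosphofructokinase subunits Pfkl and Pfkp, of the committing step, had 3.06 to 26.6 and 4.41 to 5.82 RPKM. By the counts that could be made, Eno1 (0.181 to 0.515 RPKM) was lowest in every group and Pgk1 (0.684 to 2.98 RPKM) next, except in in vivo GROs, where Ldha lay between them. Ldha had the widest span, from 0.557 RPKM in in vivo GROs to 78.0 RPKM in iPSC-derived GROs, a 140-fold difference between pooled levels. For the other 8 members this span lay between 1.32-fold for Pfkp and 8.68-fold for Pfkl.

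**Figure D1:**
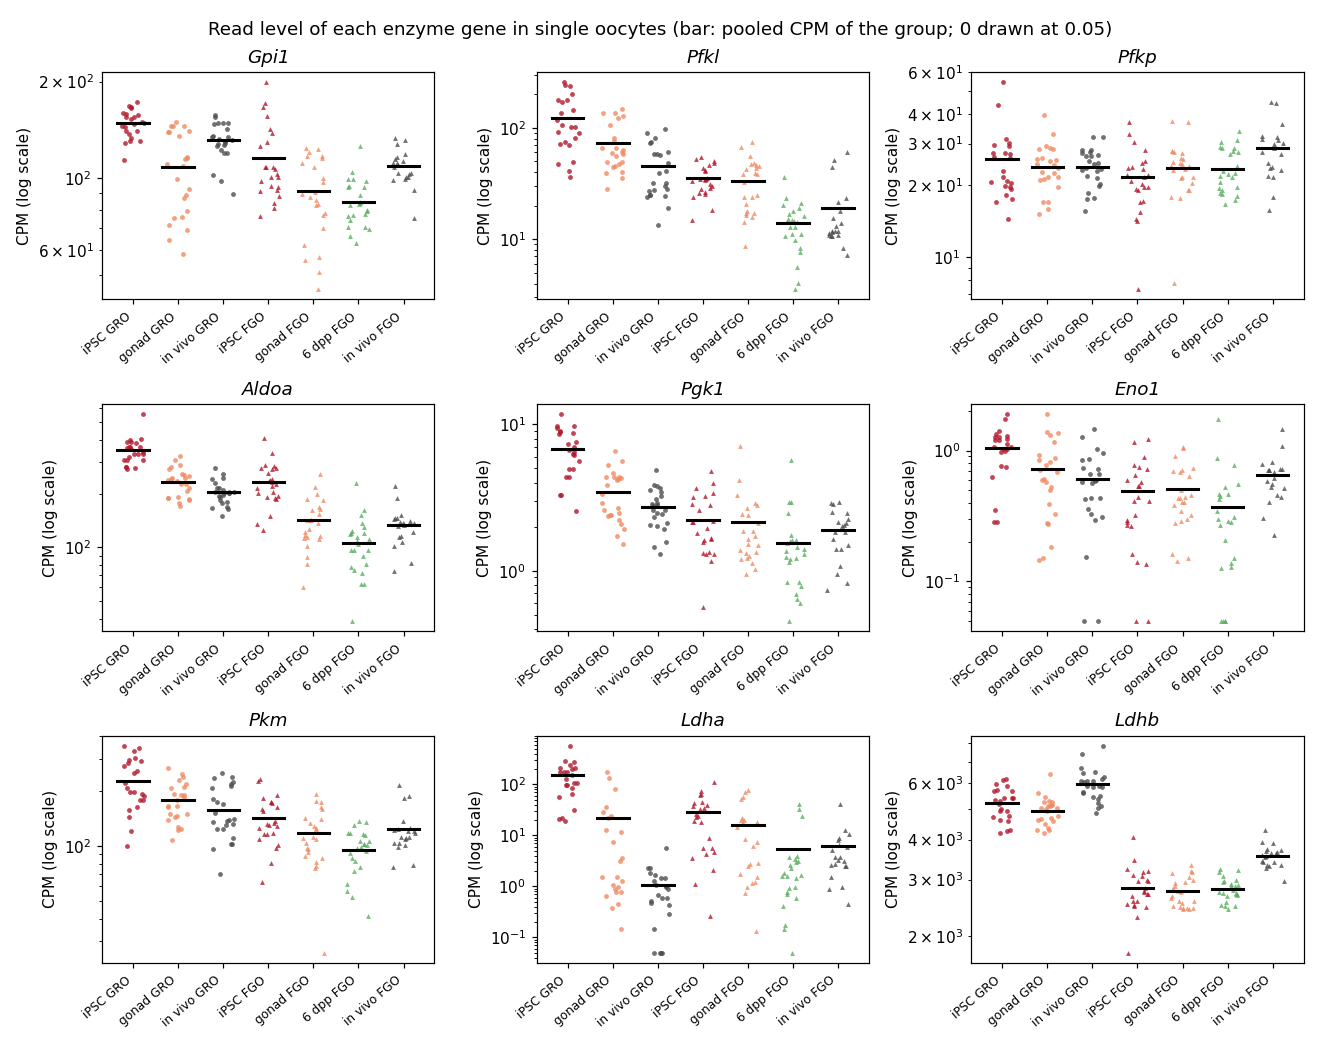
CPM of the 9 measured members in each of the 163 oocytes, on log axes of different range (circles, GROs; triangles, FGOs; black bars, pooled CPM of the group; values of 0 drawn at 0.05). Ldha runs from 0 to 567 CPM, Ldhb separates the stages without overlap within each source, and Pfkp lies between 21.6 and 28.6 pooled CPM in all groups.

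Ldha was high in iPSC-derived GROs and low in in vivo GROs. The pooled level was 152 CPM (150 to 154) in iPSC-derived GROs, with single oocytes from 18.9 to 567 CPM and a median of 126. In gonad-derived GROs it was 22.1 CPM (21.3 to 22.8), with oocytes from 0.146 to 176 CPM and a median of 2.38. In in vivo GROs it was 1.08 CPM (0.927 to 1.25), with oocytes from 0 to 5.57 CPM and a median of 0.783. All 23 iPSC-derived GROs lay above the highest in vivo GRO. The gonad-derived GROs spanned both ranges, with 10 of 24 above the highest in vivo GRO and 7 at or above the lowest iPSC-derived GRO.

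The spread of Ldha within a group was wide. Its coefficient of variation over oocytes was 1.96 in gonad-derived GROs, where the 5 highest oocytes held 83.8% of the Ldha reads of the group. Gonad-derived GRO 7 alone, at 176 CPM, held 30.7% of them, and GRO 13 had 130 CPM. In iPSC-derived GROs the coefficient was 0.797 and the 5 highest oocytes held 44.4%. Above 10 CPM lay 23 of 23 iPSC-derived, 9 of 24 gonad-derived and 0 of 24 in vivo GROs. Below 1 CPM lay 0, 8 and 14 of them.

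FGOs differed less between sources. Ldha was 29.1 CPM (28.3 to 30.0) in iPSC-derived FGOs, with oocytes from 0.260 to 111 CPM and a median of 23.4. It was 16.2 CPM (15.6 to 16.8) in gonad-derived FGOs, with oocytes from 0.134 to 76.7 CPM and a median of 7.97. It was 5.39 CPM (5.04 to 5.76) in 6 dpp FGOs, with oocytes from 0 to 40.5 CPM and a median of 1.64. In in vivo FGOs it was 6.24 CPM (5.84 to 6.66), with oocytes from 0.455 to 40.5 CPM and a median of 3.49. All 4 FGO groups overlapped, and 15, 11, 3 and 3 oocytes lay above 10 CPM in that order.

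Comparisons between sources were read by stage and named by culture step. IVP is the making of primordial germ cell-like cells from stem cells. IVD is differentiation into oocytes in a reconstituted ovary, and IVG is growth in follicle culture. The cell line, the animals and the time in culture may differ along with a step. A ratio is therefore not the effect of the step alone. For IVP@GRO, iPSC-derived against gonad-derived GROs, the log2 ratio of Ldha was 2.75, rank 18 of 13029 genes from the highest. It was 5.46 when medians over oocytes replaced pooled values. Ldha was the 1 member of 9 past 2-fold, where 3.83% of all genes tested were. All 9 members were above 0, though Pfkp (0.11) turned to -0.07 by medians over oocytes, and their median was 0.45, against -0.0043 over all genes. Pgk1 followed at 0.88, Pfkl at 0.75 and Aldoa at 0.59, and Ldhb was at 0.08.

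For IVD@GRO, gonad-derived against in vivo GROs, Ldha had a log2 ratio of 3.83, rank 17 of 13059, and 1.16 by medians over oocytes. It was again 1 of 9 members past 2-fold, where 7.04% of all genes were. Pfkl was at 0.69, the median of members at 0.17 and that of all genes at -0.04. Gpi1 and Ldhb were lower in gonad-derived GROs, both by a log2 ratio of -0.27. These comparisons share the gonad-derived GROs, whose few high oocytes enter both ratios. The study reports that iPSC-derived and gonad-derived GROs were larger than in vivo GROs. Size thus goes along with source in IVD@GRO, and its part in these ratios was not tested.

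For IVP@FGO no member passed 2-fold, where 6.21% of all genes did. Ldha was at 0.83, and at 1.11 without gonad-derived FGO 18, the oocyte of highest Ldha (76.7 CPM) and of highest granulosa sum (187 CPM) in that group. By medians over oocytes it was at 1.50. Aldoa was at 0.71, with 8 of 24 iPSC-derived FGOs above every gonad-derived one, and the median of the members was 0.06. For IVD@FGO, gonad-derived against 6 dpp FGOs, Ldha (1.50, rank 62 of 12977) and Pfkl (1.22, rank 109) were past 2-fold. That is 2 of 9 members, where 2.59% of all genes were, and the median was 0.30 against 0.02 over all genes. Earlier work on these data set 8 oocytes apart: 6 dpp FGO 12 and in vivo FGOs 16 and 19 by somatic transcripts, in vivo FGOs 5, 7 and 22 by stage, and gonad-derived FGOs 5 and 22 by depth. Without these 8, Ldha was at 1.75 and Pfkl at 1.21. With 6 dpp FGO 10 also left out, a choice made after seeing the data, they were at 2.04 and 1.23. For IVG@FGO, 6 dpp against in vivo FGOs, 0 of 9 members passed 2-fold and 4.38% of all genes did. All 9 ratios were below 0, from -0.43 for Pfkl to -0.20 for Ldha, with a median of -0.35 against -0.04. Pfkl turned to 0.23 without the 8 oocytes set apart, and Ldha to 0.23 without in vivo FGO 16. With 6 dpp FGO 10 left out beside the 8, Pfkl was at 0.20 and Ldha at -0.50. Somatic markers moved, though not all alike, in both comparisons with 6 dpp FGOs. Hsd3b1, a steroid-making enzyme of the theca list, had 49.4 pooled CPM there (0.381 to 644 over oocytes, median 9.51), against 1.18 CPM in FGOs from gonads and 3.10 CPM in those grown in vivo. Its log2 ratio was -4.89 for IVD@FGO and 3.79 for IVG@FGO, the largest of the granulosa and theca lists. Of the markers of these lists that passed the filter, Cyp19a1 (0.05) alone was above 0 for IVD@FGO. For IVG@FGO Amh (-1.66), Krt18 (-0.88) and Fshr (-0.15) were below 0, and Star (0.02) and Nr5a2 (0.03) hardly moved. The part of somatic RNA in the values of the members was not tested.

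**Figure D2:**
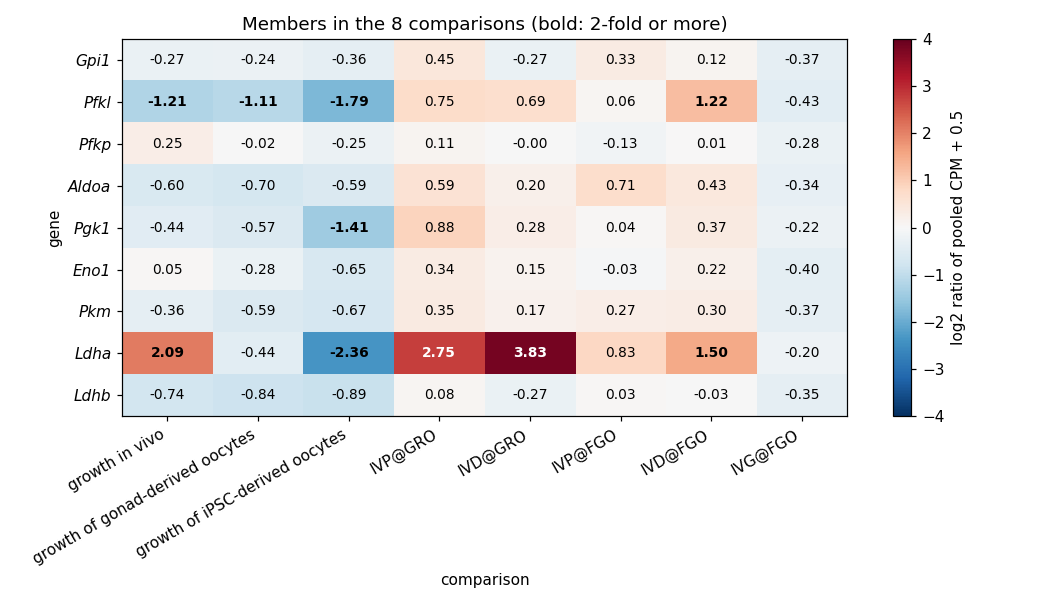
Log2 ratio of pooled CPM + 0.5 of the 9 measured members (rows) in the 8 comparisons (columns), with red for higher and blue for lower in the first group and bold for 2-fold or more. Ldha holds the highest ratios of the plot, 3.83 and 2.75, and the lowest, -2.36.

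Growth from GRO to FGO moved Ldha in opposite ways by source. In vivo it rose by a log2 ratio of 2.09, with 7 of 20 FGOs above every GRO and both groups overlapping. In iPSC-derived oocytes it fell by 2.36, with 12 of 23 GROs above every FGO. In gonad-derived oocytes the pooled ratio was -0.44 and the ratio of medians 1.56, so that its sign rested on the few high GROs. The difference in direction was not tested.

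The sum of granulosa markers was also higher in FGOs in vivo, as in the other sources, while single markers differed in direction. Summed granulosa markers had a median of 53.8 CPM (18.7 to 95.3) in in vivo GROs and 142 CPM (101 to 429) in in vivo FGOs. The median rose from 60.2 to 136 CPM in gonad-derived and from 59.7 to 108 CPM in iPSC-derived oocytes, where pooled Ldha was lower in FGOs. In in vivo FGOs the sum rested mostly on Cyp19a1 (median 67.6 CPM), Nr5a2 (24.2), Cdh2 (19.2) and Kitl (12.1). Cyp19a1 and Nr5a2 had reads in each of these oocytes, with coefficients of variation of 0.263 and 0.225. Medians of the other markers there were at most 6.23 CPM. How far the sum follows attached granulosa cells was not tested. In vivo 6 of 12 markers were past 2-fold, all higher in FGOs, where 23.7% of all genes were past it in either direction. Among them were Cyp19a1 (8.87 to 64.1 CPM) and Cdh2 (2.40 to 19.6 CPM). Gja1 rose from 1.61 to 30.6 pooled CPM, but its median over oocytes went from 1.14 to 6.23 CPM, and a single in vivo FGO had 294 CPM. The ratios of Krt18 (-0.52), Wt1 (-0.44), Fshr (-0.29) and Nr5a2 (-0.08) were below 0. In gonad-derived oocytes those of Krt18 (-0.60), Nr5a2 (-0.43) and Fshr (-0.22) were, and in iPSC-derived oocytes those of Kitl (-0.63), Nr5a2 (-0.21) and Fshr (-0.15). Across the 20 in vivo FGOs, Ldha and that sum had a Spearman correlation of 0.737, and across the 24 6 dpp FGOs one of 0.526. In vivo FGO 16 had both a high sum (360 CPM) and the highest Ldha of its group (40.5 CPM), and without it the growth ratio was 1.67. Without the 8 oocytes set apart it was 1.79. Elsewhere the correlation was -0.168, -0.405 and 0.217 in the 3 groups of GROs, and 0.060 and 0.143 in iPSC-derived and gonad-derived FGOs. The part of granulosa RNA in the Ldha level of in vivo and 6 dpp FGOs was not tested. These points share the library they come from.

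**Figure D3:**
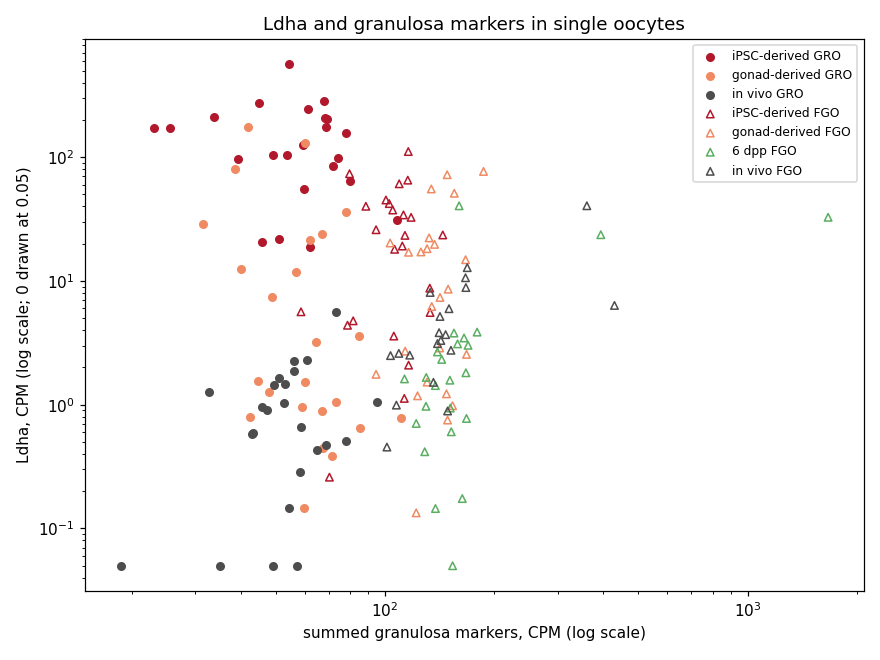
Ldha against the summed granulosa markers in each oocyte, both in CPM on log axes (filled circles, GROs; open triangles, FGOs; Ldha of 0 drawn at 0.05). The iPSC-derived GROs reach the highest Ldha values at sums below 108 CPM, and 6 dpp FGO 12 stands alone at 1667 CPM.

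Ldhb was abundant, tight and, as a share of the reads, lower at the later stage. Pooled levels were 5209, 4925 and 5958 CPM in iPSC-derived, gonad-derived and in vivo GROs. In FGOs they were 2820, 2755, 2806 and 3565 CPM in the 4 groups. The log2 ratio of growth was -0.74 in vivo, -0.84 in gonad-derived and -0.89 in iPSC-derived oocytes. Within each of these sources every GRO lay above every FGO. The share of all genes that separate the stages in this way is not given, so the separation is not read as particular to Ldhb. In vivo, the lowest GRO had 4843 CPM and the highest FGO 4275 CPM. The coefficient of variation over oocytes was between 0.079 and 0.158. Between sources Ldhb differed little, and in vivo oocytes were highest at both stages: 19 of 20 in vivo FGOs lay above every 6 dpp FGO (log2 ratio -0.35 for 6 dpp against in vivo).

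Per length, Ldhb therefore made up nearly all of the summed Ldha and Ldhb transcripts. Its pooled share was 97.6% in iPSC-derived GROs, with oocytes from 92.3 to 99.7%. It was 99.6% in gonad-derived GROs, 99.98% in in vivo GROs and 99.1, 99.5, 99.8 and 99.9% in the 4 groups of FGOs. The wide range of Ldha thus lay within a small part of the lactate dehydrogenase transcripts of these oocytes. The testis-type subunit Ldhc, also known from oocytes, had 239, 232 and 167 CPM in the GROs in the same order. It had 14.2, 24.5, 18.0 and 57.4 CPM in the FGOs. Its log2 ratios of growth were -1.53 in vivo, -3.22 in gonad-derived and -4.02 in iPSC-derived oocytes, and IVG@FGO was at -1.64.

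Pfkl, the liver-type phosphofructokinase, was past 2-fold in all 3 growth comparisons and in IVD@FGO. Pooled levels were 122 CPM (121 to 124), 72.7 CPM (71.4 to 74.1) and 45.0 CPM (44.0 to 46.1) in iPSC-derived, gonad-derived and in vivo GROs. Oocytes ran from 36.4 to 256, from 28.5 to 147 and from 13.3 to 97.7 CPM, so the groups overlapped. In FGOs the levels were 35.1, 33.5, 14.1 and 19.1 CPM in the 4 groups. The medians of those groups were 34.1, 35.4, 14.3 and 11.8 CPM. Growth ratios were -1.21 in vivo, -1.11 in gonad-derived and -1.79 in iPSC-derived oocytes. The value for gonad-derived oocytes was -0.74 by medians. Without the 8 oocytes set apart, among them in vivo FGOs 5, 7 and 22 that resembled GROs, the in vivo value was -1.87. Leaving out FGOs because they resemble GROs tends to widen such a difference, so the larger value adds no support.

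Counts of members read the same way. For growth in vivo 2 of 9 passed 2-fold (Ldha up, Pfkl down), where 23.7% of all genes did. For gonad-derived oocytes 1 of 9 did (Pfkl), against 15.8%, and for iPSC-derived oocytes 3 of 9 (Ldha, Pfkl and Pgk1, all down), against 22.0%. By count these shares are close to the background. The median ratios of the members, -0.36, -0.57 and -0.67, lay below those of all genes, -0.11, -0.05 and -0.11. In both culture sources all 9 members were below 0, and in vivo 6 of 9 were. In gonad-derived oocytes Pfkp was at -0.02 and turned to 0.03 under TMM scaling, and Ldha turned to 1.56 by medians.

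The platelet-type subunit Pfkp did not follow Pfkl. It lay between 21.6 CPM in iPSC-derived FGOs and 28.6 CPM in in vivo FGOs, and its ratios in the 8 comparisons ran from -0.28 to 0.25. The muscle-type subunit Pfkm had between 15.2 and 28.0 CPM. The mix of transcripts therefore differed by group. Per length, Pfkl made up 74.0, 62.2 and 45.0% of the 3 subunits in iPSC-derived, gonad-derived and in vivo GROs. It made up 46.8, 37.1, 22.3 and 26.8% in the 4 groups of FGOs. Pfkp made up 14.6, 19.2 and 22.4% in the GROs and 27.0, 24.5, 34.9 and 37.6% in the FGOs. In single in vivo GROs the share of Pfkl ran from 20.7 to 60.5%, and in iPSC-derived GROs from 54.4 to 82.3%, so that the groups overlapped.

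**Figure D4:**
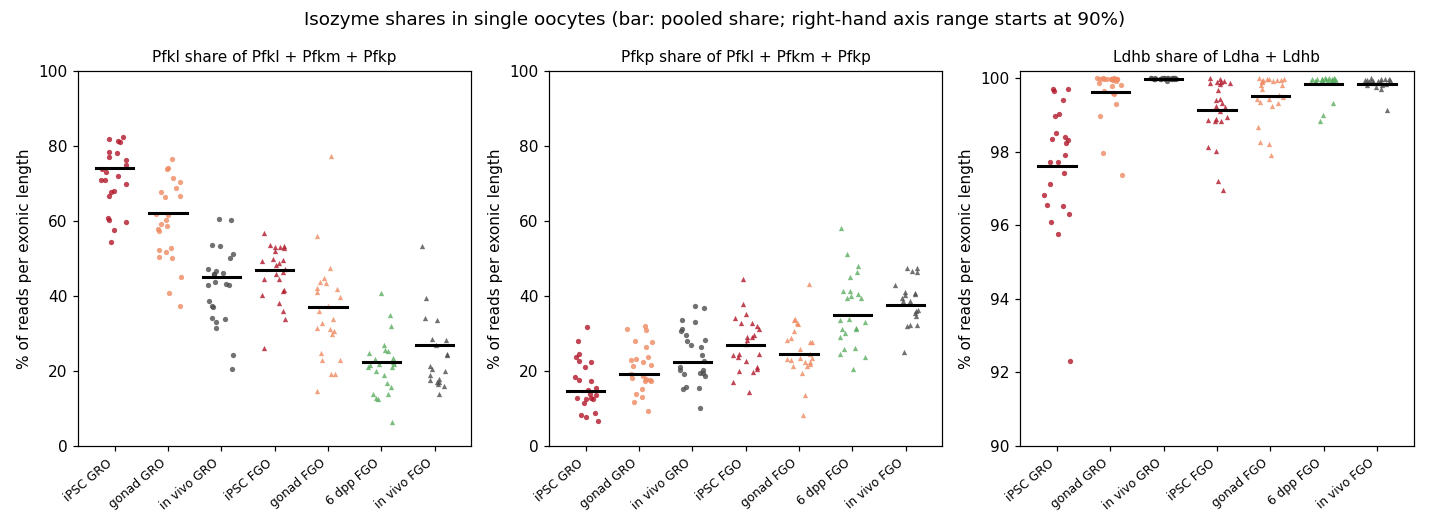
Share in percent, per exonic length, of Pfkl and of Pfkp among the 3 phosphofructokinase transcripts and of Ldhb among Ldha and Ldhb in each oocyte (circles, GROs; triangles, FGOs; black bars, pooled share). The axis of the Ldhb panel starts at 90%. The pooled Pfkl share falls from 74.0% in iPSC-derived GROs to 22.3% in 6 dpp FGOs, and the Ldhb share is lowest in iPSC-derived GROs at 97.6%.

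The members of middle level differed less between sources. Aldoa had the order of pooled Ldha and Pfkl at both stages, and Pkm had it among GROs only. In iPSC-derived GROs Aldoa had 350 CPM (275 to 557 over oocytes). Gonad-derived GROs had 233 CPM (171 to 326) and in vivo GROs 203 CPM (150 to 277). Of the iPSC-derived GROs, 15 of 23 lay above every gonad-derived GRO. In FGOs Aldoa had 233, 143, 106 and 134 CPM in the 4 groups, with overlap. Pkm, whose product pyruvate the oocyte otherwise receives, had 226, 178 and 158 CPM in the GROs and 142, 118, 95.1 and 123 CPM in the FGOs. Gpi1 was lowest in gonad-derived oocytes among GROs and in 6 dpp oocytes among FGOs, at 148, 109 and 131 CPM in the GROs and 115, 91.6, 84.4 and 109 CPM in the FGOs.

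Gpi1 was also unequal among gonad-derived GROs, from 58.2 to 150 CPM, with a coefficient of variation of 0.283 against 0.0985 in iPSC-derived GROs. Pgk1, the first enzyme of the path that makes ATP, had 6.75 CPM (6.36 to 7.16), 3.43 CPM (3.14 to 3.73) and 2.74 CPM (2.49 to 3.00) in the GROs. It had 2.23, 2.15, 1.55 and 1.89 CPM in the FGOs, and a growth ratio of -1.41 in iPSC-derived oocytes. Of those GROs 18 of 23 lay above every iPSC-derived FGO. Eno1 lay between 0.370 CPM in 6 dpp FGOs and 1.05 CPM in iPSC-derived GROs, with oocytes at 0 in 3 groups. Its intervals of neighbouring groups overlapped for the most part, and no ratio of Eno1 is read further.

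The correlation of Ldha with other members over oocytes differed by group and by gene, and no difference between groups was tested. In iPSC-derived GROs the Spearman correlation of Ldha with Aldoa was 0.847 over 23 oocytes, rank 4 of 12535 genes. With Pgk1 it was 0.757 and with Pfkl 0.243. In gonad-derived GROs it was 0.776 with Aldoa (rank 8 of 12403), 0.627 with Pgk1 and 0.624 with Pfkl. In in vivo GROs it was 0.147 with Aldoa, -0.218 with Pgk1 and 0.282 with Pfkl. In the 4 groups of FGOs it was 0.623, 0.478, 0.351 and 0.143 with Aldoa, 0.263, 0.613, 0.357 and 0.123 with Pgk1, and 0.356, 0.741, -0.053 and -0.119 with Pfkl. Over the 15 in vivo FGOs not set apart it was 0.379 with Aldoa, 0.357 with Pgk1 and -0.071 with Pfkl. These are descriptions across oocytes that share library preparation and depth within an oocyte, and 14 of 24 in vivo GROs were below 1 CPM for Ldha, so that a low correlation there is no finding.

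Among genes outside the members, Tpi1, which interconverts the triose phosphates, and Pdk1, a kinase that inhibits pyruvate dehydrogenase in mitochondria, had high correlations with Ldha in some groups. So did the glucose carrier Slc2a1, which passed 2-fold in no comparison and was chosen after its values were seen. In gonad-derived GROs the correlations were 0.885 for Tpi1, 0.869 for Pdk1 and 0.807 for Slc2a1, ranks 1, 2 and 5 of 12403. In iPSC-derived GROs they were 0.843, 0.820 and 0.772, ranks 5, 8 and 18 of 12535. In iPSC-derived FGOs they were 0.819, 0.594 and 0.696, and in gonad-derived FGOs 0.603, 0.820 and 0.676. In in vivo FGOs they were 0.107, 0.325 and -0.251, and in 6 dpp FGOs 0.310, -0.347 and 0.034. In in vivo GROs, mostly low in Ldha, none of these genes had a correlation above 0.6.

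Counted over the whole pathway lists, 6 of 58 genes in iPSC-derived GROs and 6 of 57 in gonad-derived GROs had a correlation with Ldha above 0.6. Of all genes, 1.40 and 0.524% did. In iPSC-derived FGOs 3 of 56 did (0.180% of all genes) and in gonad-derived FGOs 5 of 56 (2.34%). In in vivo GROs it was 0 of 57 (0.434%), in in vivo FGOs 0 of 55 (1.17%) and in 6 dpp FGOs 1 of 54 (1.24%).

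**Figure D5:**
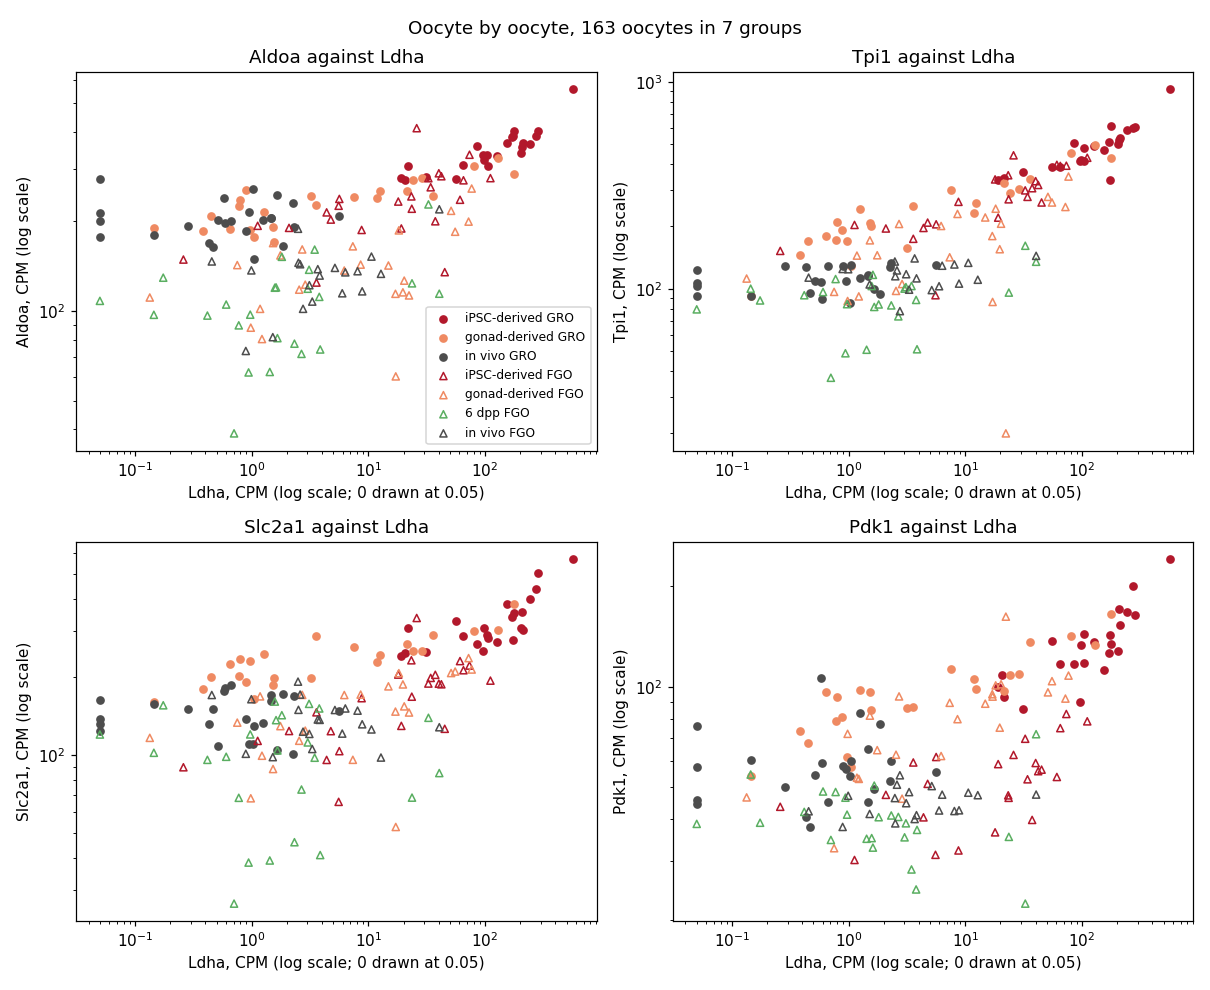
CPM of Aldoa, Tpi1, Slc2a1 and Pdk1 against that of Ldha in each of the 163 oocytes, on log axes (filled circles, GROs; open triangles, FGOs; Ldha of 0 drawn at 0.05). The iPSC-derived and high gonad-derived GROs run up to the right in all 4 panels, and in vivo oocytes form a cloud at low Ldha.

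In iPSC-derived GROs Tpi1 had 480 CPM (335 to 923 over oocytes). Gonad-derived GROs had 247 CPM (92.6 to 496) and in vivo GROs 112 CPM (85.8 to 133). All iPSC-derived GROs were thus above all in vivo GROs, and the log2 ratio was 0.96 for IVP@GRO and 1.14 for IVD@GRO. In FGOs Tpi1 had 281, 168, 89.2 and 117 CPM, with a ratio of 0.06 for growth in vivo. Slc2a1 had 327, 237 and 144 CPM in the GROs and 169, 148, 98.0 and 137 CPM in the FGOs. Pdk1 had 134, 96.8 and 58.2 CPM in the GROs and 52.9, 80.3, 40.3 and 45.1 CPM in the FGOs, and fell by 1.33 on the log2 scale in the growth of iPSC-derived oocytes.

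A second pair within the members was Pfkl and Pkm. Their Spearman correlation over oocytes was 0.941, 0.639 and 0.656 in the 3 groups of GROs and 0.392, 0.551, 0.716 and 0.614 in the 4 groups of FGOs. It had the highest median over the groups, 0.639, of the 36 pairs of members, whose middle value was 0.176. In in vivo FGOs it was 0.271 over the 15 oocytes not set apart. Aldoa and Pgk1 came second, with a median of 0.548 and values from 0.269 to 0.699. Ldha and Ldhb had a median of 0.165.

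The remaining genes of the pathway were counted by the same 2-fold rule. Of 22 other isozymes listed, 21 were in the table and between 13 and 15 passed the filter in a comparison. For growth in vivo 2 of 14 passed 2-fold, both lower in FGOs (Ldhc and Gapdh), where 23.7% of all genes did. For gonad-derived oocytes 3 of 15 did (15.8% of all genes) and for iPSC-derived oocytes 5 of 15 (22.0%), all lower. In the 5 culture comparisons between 2.59% (IVD@FGO) and 7.04% (IVD@GRO) of all genes passed, and these shares are the background of each list that follows. For IVP@GRO 2 of 15 were higher (Gapdhs 1.50, Eno1b 1.46). For IVD@GRO 3 of 15 were higher (Aldoc 1.30, Eno1b 1.23, Tpi1 1.14), and for IVP@FGO 2 of 15 were higher (Eno1b 1.59, Gapdhs 1.22). For IVD@FGO 1 of 14 was higher (Aldoc 1.30) and for IVG@FGO 1 of 13 lower (Ldhc).

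Gapdhs, the sperm-type glyceraldehyde 3-phosphate dehydrogenase, had 5.84 CPM (2.39 to 7.29 over oocytes) in iPSC-derived GROs against 1.74 and 1.67 CPM in gonad-derived and in vivo GROs. In iPSC-derived FGOs it had 6.94 CPM against 2.50 to 2.77 CPM in the other FGOs. The testis-type subunit of pyruvate dehydrogenase, Pdha2, had the same pattern, with 21.1 CPM against 6.48 and 6.40 CPM in GROs and 29.6 CPM against 6.03 to 7.66 CPM in FGOs. Its log2 ratios were 1.63 for IVP@GRO and 2.21 for IVP@FGO. Gapdh had between 2.26 and 18.1 CPM, and 80.3% of the 75-base words of its transcript were also in transcripts of other genes, 121 in number, so its level is uncertain. For Eno1b, a copy of Eno1, the share was 79.6%.

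Of 13 transporters, between 10 and 11 passed the filter. For growth in vivo 2 rose past 2-fold, the glucose carrier Slc2a12 (3.69) and the monocarboxylate carrier Slc16a7 (1.81), and Slc2a8 was lower (-1.07), which makes 3 of 11, where 23.7% of all genes passed. Slc2a8 was also past 2-fold in the growth of gonad-derived (-1.03) and iPSC-derived oocytes (-1.68), where 15.8 and 22.0% of all genes were. Slc2a12 had 5.14 CPM (0 to 32.2 over oocytes) in in vivo GROs and 72.4 CPM (30.2 to 111) in in vivo FGOs. In gonad-derived and iPSC-derived GROs, which were larger than in vivo GROs, it had 16.2 and 23.0 CPM. In the FGOs of culture it had 29.8, 19.5 and 31.8 CPM in iPSC-derived, gonad-derived and 6 dpp oocytes. Its ratio was 1.57 for IVD@GRO, where Slc16a7 (1.19) was the other transporter past 2-fold, and -1.17 for IVG@FGO. Slc16a1, which carries pyruvate and lactate, rose past 2-fold with growth in gonad-derived (1.07) and iPSC-derived oocytes (1.39), from 45.3 to 95.3 and from 46.1 to 122 CPM. In vivo it had 76.1 CPM in GROs and 76.4 CPM in FGOs, and in 6 dpp FGOs 134 CPM. Bsg, the partner protein of these carriers, fell by 1.07 in the growth of iPSC-derived oocytes, and IVP@GRO, IVP@FGO and IVD@FGO had 0 transporters past 2-fold.

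For growth, 23.7% of all genes passed 2-fold in vivo, 15.8% in gonad-derived and 22.0% in iPSC-derived oocytes. These shares are the background of the growth calls that follow. Of 13 genes of pyruvate use, 12 or 13 passed the filter. Pcx, which turns pyruvate into oxaloacetate, was lower in FGOs of all 3 sources with ratios of -1.70 in vivo, -1.15 in gonad-derived and -1.18 in iPSC-derived oocytes. Pdk2 was past 2-fold in IVG@FGO at -1.39, with 0.866 CPM in 6 dpp and 3.07 CPM in in vivo FGOs. Of 6 regulators in the table, Pfkfb3, which makes the activator of phosphofructokinase, was lower in FGOs, with ratios of -1.88, -1.41 and -1.64 in the same order of sources. Pfkfb1 was at -1.65 in the growth of iPSC-derived oocytes, and no regulator passed 2-fold in the 5 culture comparisons. Of 8 genes of the pentose phosphate path, Pgls was past 2-fold in all 3 growth comparisons (-1.69, -1.04 and -1.17) and Tkt in those of in vivo (-1.02) and gonad-derived oocytes (-1.02), and 0 in the 5 culture comparisons.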

How the data were processed

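Transcripts of 163 single oocytes were measured by Smart-seq2. Per the study's methods, the authors aligned single-end reads of 75 bases with STAR to GRCm38 (mm10) with spike-in sequences. They counted uniquely mapped reads over the exons of 1 randomly chosen transcript per gene with QuasR, whose version is not given in the sources used here. They deposited raw counts per gene, with no normalization, and an exonic length. All 163 columns were used, including 9 oocytes that the study left out by size for its own fits. The table had 21950 genes, of which 21907 had a symbol in RefSeq (GRCm38.p6).

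Levels are CPM, the reads of all oocytes of a group over their joint library size. Genes above 1 CPM in at least 3 oocytes of the groups compared entered a comparison, with a pseudocount of 0.5 CPM and a 2-fold rule. With 1 sample per group no test was run. Shares of transcripts and RPKM used the deposited length, which equalled no GENCODE M21 transcript length of a member; read-length words were taken from the transcript nearest in length. Alternatives were edgeR 4.0.16 TMM and DESeq2 1.42.0 size factors, a pseudocount of 2 CPM, no filter, means and medians over oocytes, oocytes kept by size, without 8 oocytes set apart (and, added after seeing the data, also without 6 dpp FGO 10), and each oocyte left out in turn. The calculation was tested on simulated data and used numpy 2.4.6, pandas 2.3.3, scipy 1.17.1 and R 4.3.3. All members were named, and of the other pathway lists genes past 2-fold, at most 4 per list and comparison; 1 gene of these lists is not reported here. The members and lists were chosen with earlier results of these data known.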

Additional observations from a re-analysis of the deposited data

Results flagged for a closer look

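Ldha moved in opposite ways with growth in different sources. Its log2 ratio of FGOs to GROs was 2.09 in vivo and -2.36 in iPSC-derived oocytes. The in vivo value starts from 1.08 CPM in GROs, and in vivo FGO 16 held 30.8% of the Ldha reads of its group. Under the alternatives it ranged from 1.42 to 2.31. The difference between these ratios was not tested, since each group counted as 1 sample.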

How the results depend on the processing

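Ratios of named members past 2-fold kept their direction under every alternative run. The exceptions to the 2-fold call were Pfkl in the growth of gonad-derived oocytes, at -0.74 by medians over oocytes, and Ldha there at 1.56 and in IVP@FGO at 1.50, both under 2-fold when pooled. The number of members past 2-fold in IVP@FGO was 0, and 1 by medians over oocytes. With each oocyte left out in turn it lay between 0 and 1, the latter without gonad-derived FGO 17 or 18. Ldha ranged from 1.16 to 4.05 in IVD@GRO, from 2.56 to 5.46 in IVP@GRO, from 1.22 to 2.04 in IVD@FGO, from 1.42 to 2.31 in growth in vivo and from -2.56 to -2.12 in growth of iPSC-derived oocytes. The cause was not tested. Across scalings the median of all genes moved by at most 0.096. Of the other values, 888 stayed within the spread between oocytes or on their side of the rule, and 2 moved, those of Ldha in IVP@GRO and IVD@GRO by medians. No paired analysis was possible because no result comes from a test and an oocyte number links no oocytes across groups. Low read counts limit Eno1, Pgk1 and Ldha of in vivo GROs, and copies elsewhere also limit Eno1 and Pgk1. With 1 line, no named cultures and no replicate groups, source cannot be told apart from the culture or animal behind it.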
